A study of Mus musculus with 8 samples.

Results

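The 39 Hox genes of clusters A to D were followed in mouse esophageal organoids treated with TGFb1, BMP4 or both. They were chosen by name, as every row whose gene symbol is Hoxa, Hoxb, Hoxc or Hoxd with a number, out of 52636 genes in the deposited table. Cluster A contributed 11 genes, cluster B 10, cluster C 9 and cluster D 9. Organoids are 3-dimensional cultures, here of esophageal epithelial cells of wild-type mice kept in Matrigel for 13 days. The 8 RNA-seq libraries formed 4 groups of 2. The inhibitor group received 500 nM A8301, which blocks the kinases of TGFb type I receptors. The BMP4 with inhibitor group received the same inhibitor with BMP4 at 20 ng/ml. The TGFb1 group received TGFb1 at 1 ng/ml, and the TGFb1 with BMP4 group received both ligands at these doses. Treatment ran for 72 h with renewal every 24 h. No inhibitor is listed for either TGFb1 group, so wherever TGFb1 libraries are set against inhibitor libraries, the added ligand and the missing inhibitor act together. The labels do not say that the replicates came from separate animals, so p-values measure the spread between these libraries, which may be technical.

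Hox genes encode homeodomain transcription factors that give cells their position along the body axis. In each cluster they lie in order of paralog number, low numbers being expressed toward the head and high numbers toward the tail. Hox proteins bind DNA with cofactors of the TALE family (Pbx, Meis and Pknox), and clusters that are off are held by Polycomb complexes. BMP and TGFb ligands signal through SMAD proteins, and both pathways act on Hox genes in embryos.

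Levels are given as deposited, in CPM, the count of a gene scaled to its library's total. A value of 0.05 CPM is 1 unit of the authors' scaled counts, and 0.15 CPM, or 3 such units, was taken as the floor. A gene was tested when it reached 1 CPM in at least 2 libraries, which 16180 genes did. The test was limma on log2(CPM + 1) over all 8 libraries, two-sided, with Benjamini-Hochberg adjustment within a comparison and a threshold of 0.05. The pseudocount of 1 shrinks differences of genes with low levels. Summed levels of 11 epithelial markers lay between 16714 and 25134 CPM, and no marker of that list was at 0 in any library. Single markers moved within this sum. Krt15 had a mean of 372 CPM with inhibitor and 23.5 CPM with BMP4 and inhibitor. Epcam had a mean of 47.7 CPM with inhibitor and 283 CPM with TGFb1. With both ligands against inhibitor 4 of the 11 were called as higher and 4 as lower, where 46.0% of all tested genes were called. In bulk RNA, fewer cells of a type and less RNA per cell cannot be told apart. Summed levels of 16 fibroblast markers were higher in replicate 2 of every group and higher with TGFb1. They were 63.4 and 237 CPM with inhibitor, 245 and 1026 CPM with BMP4 and inhibitor, 1765 and 5888 CPM with TGFb1, and 1804 and 8921 CPM with both ligands, replicate 1 first.

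Of the 39 genes, 15 were tested, 10 more reached the floor without entering the test, 8 stayed above 0 but under the floor, and 6 were at 0 in every library. Among the tested genes were Hoxa2 to Hoxa5 and Hoxa7, Hoxb2 to Hoxb4 and Hoxb9, and Hoxc4, Hoxc5, Hoxc6, Hoxc8 and Hoxc13. None came from cluster D. The expressed stretch ended in each of clusters A to C before the tail end of the cluster. In cluster A it ended at Hoxa7, with Hoxa6 at 0.3 to 0.65 CPM inside it. In clusters B and C a single gene lay apart from the stretch, Hoxb9 beyond Hoxb5 to Hoxb8 and Hoxc13 beyond Hoxc9 to Hoxc12. The genes at 0 throughout were Hoxa11, Hoxa13, Hoxb13, Hoxd1, Hoxd11 and Hoxd12. The genes above 0 but under the floor in every library were Hoxa10, Hoxb1, Hoxc10, Hoxc11, Hoxc12, Hoxd3, Hoxd10 and Hoxd13.

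**Figure D1:**
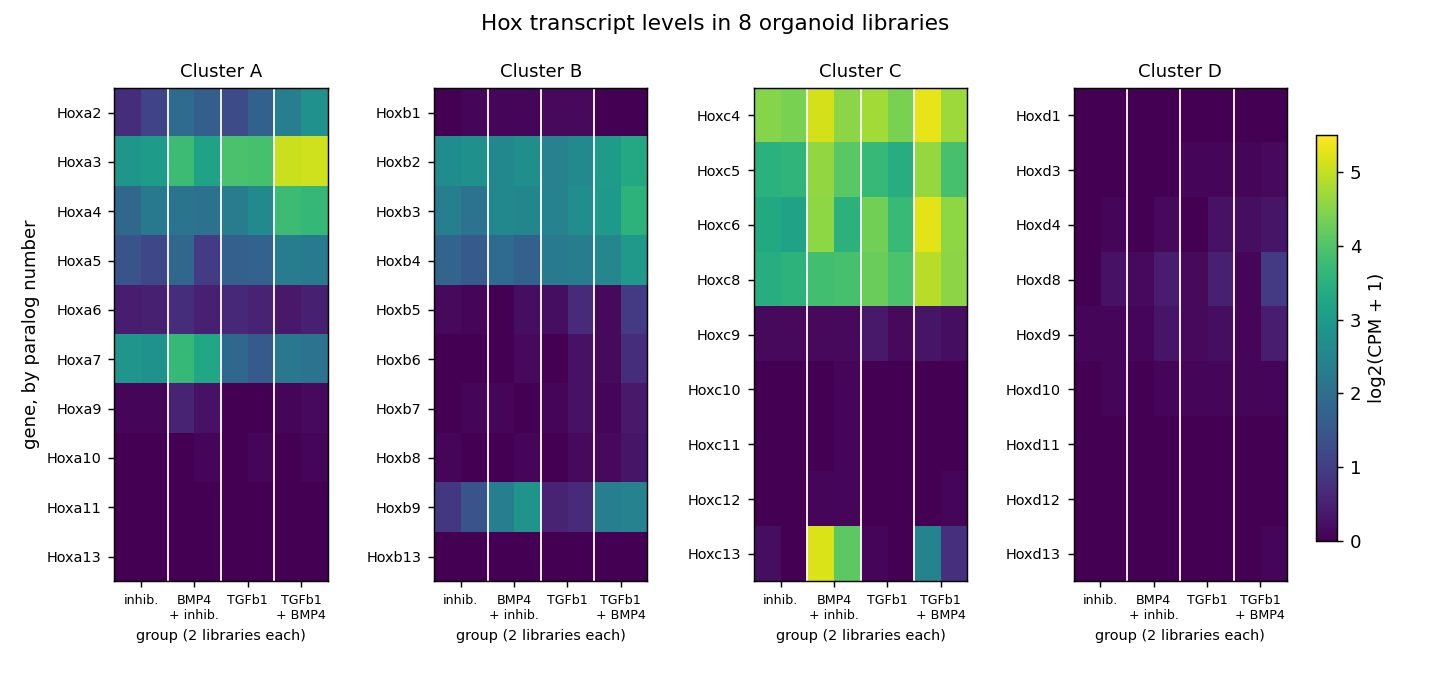
Level of 38 of the 39 Hox genes as log2(CPM + 1), coloured from 0 to 5.5, with genes in rows by paralog number and the 8 libraries in columns, replicate 1 left of replicate 2 in each group. Cluster D holds no tested gene, and Hoxb9 and Hoxc13 stand apart from the other expressed genes of their clusters.

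Cluster C gave the largest share of Hox RNA. Its summed level was 50.6 ± 0.918 CPM with inhibitor (SD, n = 2), against 22.7 ± 1.77 CPM for cluster A and 13.0 ± 0.107 CPM for cluster B. Cluster D summed to 0.2 ± 0.212 CPM. With TGFb1 and BMP4 the sums were 109 ± 34.6 CPM for cluster C, 64.0 ± 0.844 CPM for cluster A and 27.98 ± 6.92 CPM for cluster B. Levels of different genes were compared per kilobase of annotated exon. With inhibitor, Hoxc4 led at 8.09 CPM per kb, and its 2 libraries lay above those of every other Hox gene. Hoxc8, Hoxc6 and Hoxc5 followed at 3.62, 3.58 and 3.49 CPM per kb, and neighbours in this order overlapped between libraries. Hoxa7 was next at 2.16 CPM per kb and overlapped with Hoxa4 at 1.99 CPM per kb. With both ligands Hoxc6 and Hoxc4 shared the lead at 12.5 and 12.3 CPM per kb, and Hoxa4 and Hoxa3 stood at 7.62 and 5.47 CPM per kb. Hoxc13 moved from the last of the 15 places with inhibitor, at 0.03 CPM per kb, to the second place with BMP4 and inhibitor, at 10.5 CPM per kb.

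BMP4 with inhibitor against inhibitor asks what BMP4 does while TGFb signalling is blocked. Hoxc13 and Hoxb9 rose, and no Hox gene fell. These 2 of 15 tested genes compare with 8.41% of all tested genes called in this comparison, 5.49% as higher and 2.91% as lower. At an unadjusted p under 0.05 limma gave 7 members, all with a higher level. Hoxc13 and Hoxb9 are among the 7. The share of all genes at that p was not counted, so nothing is read from this number. Hoxc13 reached 1 CPM in 3 libraries, all with BMP4, and Hoxb9 reached it in both libraries of a group only where BMP4 was given. Both thus entered the test through groups in which they were high, so nothing is read from the counts of members called for BMP4. Hoxc13, a regulator of hair keratin genes in skin, and Hoxb9, which patterns the thoracic skeleton, are the members with the highest paralog numbers among those tested. Their homeoboxes, the coding stretch for the DNA-binding domain, are shown because these were the members called. They are read from GENCODE M21 transcripts on GRCm38, and capitals mark the codons of the conserved motif in the third helix, which reads the DNA. Hoxc13 lies at chr15:102927210-102927389, plus strand and Hoxb9 at chr11:96274659-96274838, plus strand.
Hoxc13 homeobox: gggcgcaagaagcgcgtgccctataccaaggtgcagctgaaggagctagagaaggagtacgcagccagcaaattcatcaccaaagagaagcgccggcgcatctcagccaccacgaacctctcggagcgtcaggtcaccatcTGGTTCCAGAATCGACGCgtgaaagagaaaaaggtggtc
Hoxb9 homeobox: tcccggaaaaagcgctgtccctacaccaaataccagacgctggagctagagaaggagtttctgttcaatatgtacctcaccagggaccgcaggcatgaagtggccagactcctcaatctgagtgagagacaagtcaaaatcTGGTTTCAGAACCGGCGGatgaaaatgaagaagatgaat
Over the 180 bases Hoxc13 was 57.2% identical to Hoxb9. The longest stretch that Hoxc13 shared without a mismatch with another Hox transcript was 21 bases, and that of Hoxb9 was 50 bases, shared with Hoxc9.

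Hoxc13 was measured at 0.15 and 0 CPM with inhibitor, at 35.3 and 16.2 CPM with BMP4 and inhibitor, at 0.05 and 0 CPM with TGFb1, and at 4.55 and 0.7 CPM with both ligands. The 4 libraries with BMP4 lay above the 4 without it, and the 2 libraries with BMP4 and inhibitor lay above all others. The gene entered the test through 3 libraries, all treated with BMP4. The log2 difference between BMP4 with inhibitor and inhibitor was 4.54 ± 0.58 (SE, n = 2 per group, limma adjusted p = 0.0088). In scaled units, 1031 against 3, the ratio was 344, with an exact counting interval at the 95% level from 117 to 1669. The interval covers counting error only. With both ligands against TGFb1 alone the ratio was 105, with an interval from 18.4 to 4186, and the log2 difference of 1.58 ± 0.58 did not pass the limma test. With both ligands Hoxc13 was lower than with BMP4 and inhibitor by a log2 difference of -3.03 ± 0.58 (limma adjusted p = 0.0111). The neighbouring Hoxc12, Hoxc11 and Hoxc10 stayed under the floor in all 8 libraries.

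Hoxb9 was measured at 0.85 and 1.7 CPM with inhibitor, at 4.1 and 6.15 CPM with BMP4 and inhibitor, at 0.45 and 0.6 CPM with TGFb1, and at 4.1 and 4.4 CPM with both ligands. All 4 libraries with BMP4 lay above all 4 without it. The log2 differences were 1.43 ± 0.26 for BMP4 with inhibitor against inhibitor (limma adjusted p = 0.0239) and 1.78 ± 0.26 for both ligands against TGFb1 (limma adjusted p = 0.0276). This separation was found in 4 of 15 members and in 4.44% of all tested genes, and since Hoxb9 and Hoxc13 are among the 4, nothing is read from that count either. Hoxc5, a gene of the neck and upper thorax, was at 10.49 and 11.04 CPM with inhibitor, 23.4 and 16.2 CPM with BMP4 and inhibitor, 11.9 and 9.79 CPM with TGFb1, and 23.7 and 13.9 CPM with both, and its BMP4 libraries also lay above the other 4.

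When the replicate number was added as a block, 6 Hox genes were higher with BMP4 and inhibitor and none was lower. Under the block 21.6% of all tested genes were called, 11.8% as higher and 9.85% as lower. Beside Hoxb9 and Hoxc13 these were Hoxa2, Hoxa7, Hoxc5 and Hoxc6, with limma adjusted p of 0.0372, 0.0375, 0.0362 and 0.0389 under the block. Without the block, neither Hoxb9 nor Hoxc13 passed the test when inhibitor replicate 1, inhibitor replicate 2 or BMP4 with inhibitor replicate 1 was left out. The limma adjusted p was then 0.0615, 0.0799 and 0.0524 for Hoxc13 and 0.121, 0.0688 and 0.0565 for Hoxb9.

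**Figure D2:**
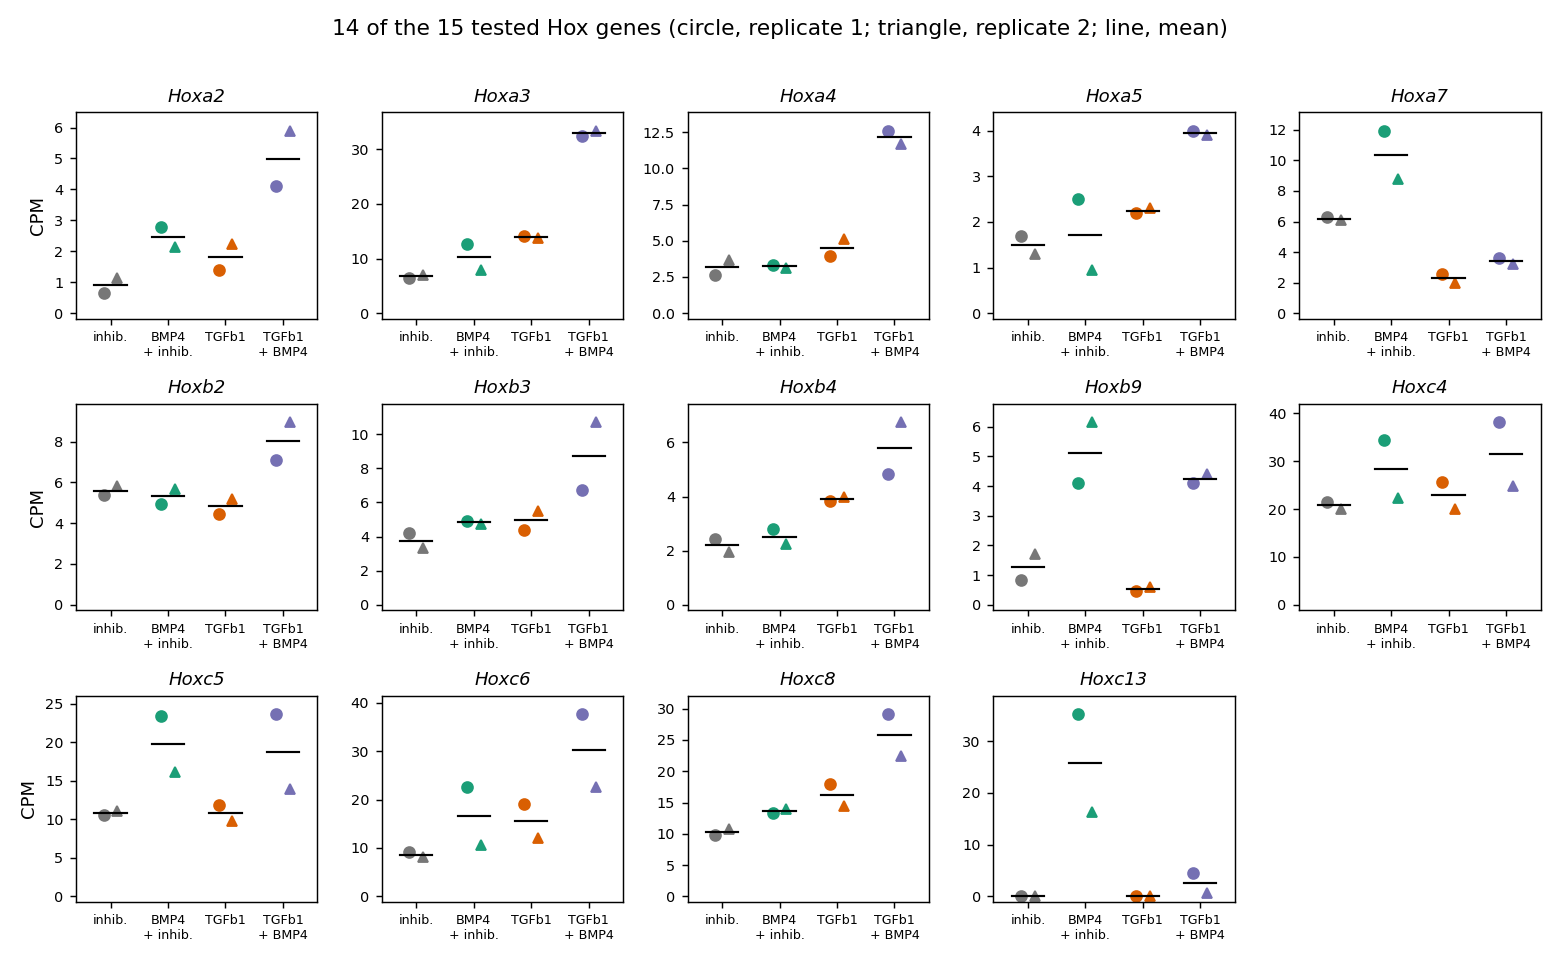
CPM of 14 of the 15 tested Hox genes in every library, one panel per gene with its own linear axis from 0. Circles are replicate 1, triangles replicate 2 and lines the mean of 2 libraries; Hoxc13 reaches 35.3 CPM with BMP4 and inhibitor, and Hoxa3 reaches 33.4 CPM with both ligands.

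Hoxb9 lies next to a microRNA gene and the gene of a long non-coding RNA. Mir196a-1 ends 6192 bases before the annotated start of Hoxb9 on chromosome 11 of GRCm38, and Gm53, annotated as a lincRNA on the same strand, ends 6589 bases before it. Gm53 was chosen after its values were seen, among the 51 other genes annotated inside the 4 Hox clusters or within 10000 bases of their ends. The mature microRNA, from RefSeq on GRCm38.p6 (chr11:96265187-96265208, plus strand), is shown with its seed, bases 2 to 8, in capitals. Below it are sites in the 3′ UTRs of Hoxa7 (chr6:52215400-52215421, minus strand) and Hoxc8 (chr15:102992976-102992997, plus strand), tested members with several seed matches, with the match in capitals.
mmu-miR-196a-5p: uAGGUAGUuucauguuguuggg
Hoxa7 site: ggcacagccaaaatACTACCTa
Hoxc8 site: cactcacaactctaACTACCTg
The Hoxa7 transcript holds 4 matches to the seed, ACTACCT, and the Hoxc8 transcript 2, while Hoxa4 and Hoxa5 hold 1 each. The other 11 tested members hold none in the longest annotated transcript. Over all 39 Hox genes 8 hold a match, or 20.51%, against 6.1% of 21016 genes with an annotated 3′ UTR. The median 3′ UTR was 966 bases for Hox genes and 961 bases for all genes.

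Gm53 was at 1.55 and 1.75 CPM with inhibitor, 24.7 and 19.2 CPM with BMP4 and inhibitor, 3.7 and 3.45 CPM with TGFb1, and 11.1 and 14.3 CPM with both ligands. Mir196a-1, read here as RNA over the hairpin gene and not as the mature microRNA, was at 0.25 and 0.3 CPM, 4.00 and 3.95 CPM, 0.799 and 0.5 CPM, and 2.25 and 1.9 CPM in the same order. In both, every library with BMP4 lay above every library without it. Mir196a-1 reached 1 CPM only in libraries with BMP4. It thus entered the test through groups in which it was high, so nothing is read from its separation or its call. The log2 difference for BMP4 with inhibitor against inhibitor was 3.11 ± 0.2 for Gm53 (limma adjusted p = 0.00183) and 1.96 ± 0.17 for Mir196a-1 (limma adjusted p = 0.00357). Both were lower with both ligands than with BMP4 and inhibitor, by -0.74 ± 0.2 (limma adjusted p = 0.0339) and -0.7 ± 0.17 (limma adjusted p = 0.0283). Hoxb8 and Hoxb7, on the other side of Hoxb9, did not pass 0.25 and 0.3 CPM in any library.

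**Figure D3:**
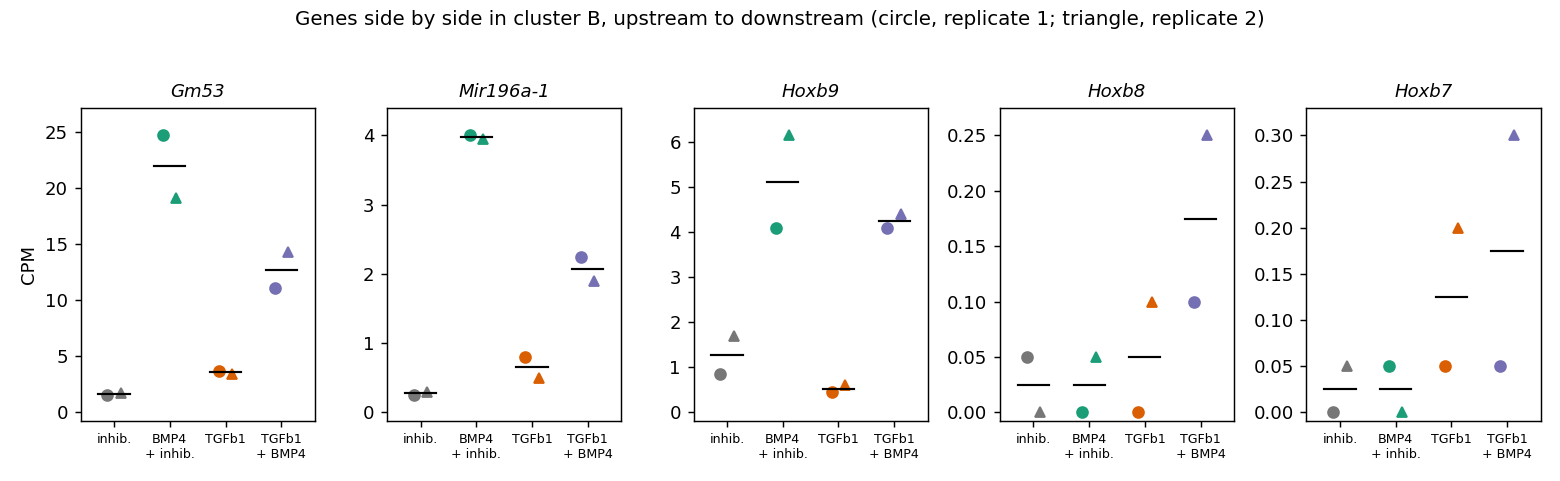
CPM of Gm53, Mir196a-1, Hoxb9, Hoxb8 and Hoxb7, neighbours in cluster B, in every library on linear axes that differ between panels; circles are replicate 1, triangles replicate 2 and lines means. The first 3 are higher in all 4 BMP4 libraries, while Hoxb8 and Hoxb7 stay at or under 0.3 CPM. Mir196a-1 and Hoxb9 entered the test through groups with BMP4, and Gm53 was chosen after its values were seen. Nothing is read from the pattern that the 3 share.

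TGFb1 against inhibitor was called for 3 Hox genes, of which Hoxa3 and Hoxc8 rose and Hoxa7 fell, in a comparison where 40.0% of all tested genes were called, 20.0% in each direction. With the replicate block 4 were higher and 2 lower, against 53.1% of all genes, 26.7% as higher and 26.4% as lower. The added ones were Hoxb4 (limma adjusted p = 0.0412 under the block) and Hoxc6 (limma adjusted p = 0.0207), both higher, and Hoxb9 (limma adjusted p = 0.0461), lower. The share of members called, with or without the block, was under the share of all genes. The 2 genes with opposite directions, Hoxa3 and Hoxa7, lie in the same cluster. Their RefSeq promoters on GRCm38.p6, from 250 bases before to 50 after the start, are shown for that reason, at chr6:52213018-52213317, minus strand, for Hoxa3 and chr6:52218524-52218823, minus strand, for Hoxa7. The Hoxa3 window is near the upstream end of the gene, annotated over chr6:52169062-52213336. It lies beyond Hoxa4, Hoxa5 and Hoxa6, between Hoxa6 and Hoxa7. No other Hoxa3 window was searched, and which start these organoids use was not tested. Motifs were searched on both strands, and matches are in capitals.
Hoxa3 promoter: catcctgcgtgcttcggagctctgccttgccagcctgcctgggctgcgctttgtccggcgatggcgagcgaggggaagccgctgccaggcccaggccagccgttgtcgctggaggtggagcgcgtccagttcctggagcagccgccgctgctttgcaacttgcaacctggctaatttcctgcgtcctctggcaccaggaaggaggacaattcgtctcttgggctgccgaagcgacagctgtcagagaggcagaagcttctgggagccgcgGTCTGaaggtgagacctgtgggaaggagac
Hoxa7 promoter: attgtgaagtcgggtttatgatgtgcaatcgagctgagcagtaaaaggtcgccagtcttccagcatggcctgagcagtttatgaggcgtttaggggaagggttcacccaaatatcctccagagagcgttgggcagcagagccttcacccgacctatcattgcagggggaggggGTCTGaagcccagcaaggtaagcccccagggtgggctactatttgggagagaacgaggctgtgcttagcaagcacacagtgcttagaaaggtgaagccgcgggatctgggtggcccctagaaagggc
Each window held 1 match to CAGAC, a SMAD half-site, which 49.59% of 32851 promoters of this length hold. Neither held GGCGCC, a GC-rich SMAD site found in 11.87% of promoters, the palindrome GTCTAGAC, found in 0.21%, or TGATNNAT, a Hox-Pbx site, found in 8.85%. No match overlapped another. Promoters were at hand for 6 of the 15 tested members.

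Hoxa7, a gene of the middle of the cluster that has been studied in human keratinocytes as a repressor of differentiation genes, was at 6.3 and 6.1 CPM with inhibitor, 11.9 and 8.8 CPM with BMP4 and inhibitor, 2.6 and 1.95 CPM with TGFb1, and 3.6 and 3.25 CPM with both ligands. All 4 libraries with TGFb1 lay below all 4 with inhibitor, and Hoxa7 was the 1 tested member with that pattern, against 14.8% of all tested genes. The log2 difference was -1.14 ± 0.20 for TGFb1 against inhibitor (limma adjusted p = 0.00655), and this call held with each of the 8 libraries left out in turn. It was -1.35 ± 0.20 for both ligands against BMP4 with inhibitor (limma adjusted p = 0.00479), which also held with each library left out.

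Hoxa3, which builds the thymus and parathyroid from the pharyngeal pouches, was at 6.5 and 7.05 CPM with inhibitor, 12.7 and 8.00 CPM with BMP4 and inhibitor, 14.2 and 13.8 CPM with TGFb1, and 32.4 and 33.4 CPM with both ligands. The libraries with both ligands lay above all others, those with TGFb1 came next, and the BMP4 with inhibitor libraries lay between these and the inhibitor libraries. The log2 difference for TGFb1 against inhibitor was 0.95 ± 0.21 (limma adjusted p = 0.0138). Leaving out either inhibitor library or either TGFb1 library took this to a limma adjusted p of 0.0703, 0.0585, 0.07 and 0.0543. Hoxc8, which patterns the lower thorax, was at 9.74 and 10.7 CPM with inhibitor and 17.9 and 14.4 CPM with TGFb1, a log2 difference of 0.60 ± 0.18 (limma adjusted p = 0.0378). Without any 1 of the 6 libraries of the inhibitor, BMP4 with inhibitor and TGFb1 groups it did not pass, with a limma adjusted p between 0.0508 and 0.196.

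With TGFb1 and BMP4 together, most of the tested Hox genes were at their highest. Against inhibitor 10 rose and Hoxa7 fell, where 46.0% of all tested genes were called, 27.6% as higher and 18.4% as lower. The median log2 difference of the 15 members was 1.08, against 0.13 over all tested genes. Hoxb9, called here, and Hoxc13 entered the test through groups with BMP4 in which they were high. Nothing is read from the counts of members called in this comparison, with or without the block, or from the median. Under median-of-ratios scaling the median over all genes was 0.01, that of the members was 0.96, and 9 members were called as higher and 1 as lower. Over all genes that scaling turned 4469 higher and 2980 lower calls into 3450 higher and 3694 lower ones. In 8 of 15 members both libraries with both ligands lay above the other 6, a pattern of 17.6% of all tested genes. They were Hoxa2, Hoxa3, Hoxa4, Hoxa5, Hoxb2, Hoxb3, Hoxb4 and Hoxc8.

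In cluster A, Hoxa2, Hoxa3, Hoxa4 and Hoxa5 had this pattern. For Hoxa3 the log2 difference from inhibitor was 2.13 ± 0.21 (limma adjusted p = 0.000604). Hoxa4, a gene of the neck vertebrae, was at 2.65 and 3.7 CPM with inhibitor, 3.35 and 3.15 CPM with BMP4 and inhibitor, 3.95 and 5.1 CPM with TGFb1, and 12.6 and 11.7 CPM with both ligands. The 6 libraries with at most 1 ligand lay between 2.65 and 5.1 CPM, and the 2 with both lay well above them. The log2 difference from inhibitor was 1.67 ± 0.20 (limma adjusted p = 0.0012). Hoxa2, the selector gene of the second pharyngeal arch, was at 0.65 and 1.15 CPM, 2.8 and 2.15 CPM, 1.4 and 2.25 CPM, and 4.1 and 5.9 CPM in the same order, a difference of 1.65 ± 0.26 (limma adjusted p = 0.00337). Its levels with 1 ligand lay between those with inhibitor and those with both. Hoxa5, needed for the formation of the airways and lung, was at 1.7 and 1.3 CPM, 2.5 and 0.949 CPM, 2.2 and 2.3 CPM, and 4.00 and 3.9 CPM, a difference of 0.99 ± 0.28 (limma adjusted p = 0.0292).

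In cluster B, Hoxb2 to Hoxb4, genes of the hindbrain and neck, were each highest in replicate 2 with both ligands, the library with the highest fibroblast, muscle and endothelial marker sums. The part of those markers in the result was not tested. Hoxb4, also known for its effect on blood stem cells, was at 2.45 and 1.95 CPM with inhibitor, 2.8 and 2.25 CPM with BMP4 and inhibitor, 3.85 and 4.00 CPM with TGFb1, and 4.85 and 6.75 CPM with both ligands. Its log2 difference from inhibitor was 1.08 ± 0.21 (limma adjusted p = 0.00705). Hoxb3 was at 4.2 and 3.3 CPM, 4.9 and 4.75 CPM, 4.4 and 5.5 CPM, and 6.7 and 10.7 CPM, a difference of 1.00 ± 0.24 (limma adjusted p = 0.0165). Hoxb2 was at 5.4 and 5.8 CPM, 4.95 and 5.7 CPM, 4.45 and 5.2 CPM, and 7.1 and 8.94 CPM. Its difference of 0.44 ± 0.18 did not pass (limma adjusted p = 0.0849, 0.0391 under the block). For Hoxb9 the log2 difference of both ligands from inhibitor was 1.23 ± 0.26 (limma adjusted p = 0.00933).

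In cluster C, Hoxc6 and Hoxc8 rose, and replicate 1 was the higher library of the combined treatment in all 5 tested genes. Hoxc6, a thoracic gene, was at 9.2 and 8.05 CPM with inhibitor, 22.6 and 10.6 CPM with BMP4 and inhibitor, 19.1 and 12.04 CPM with TGFb1, and 37.7 and 22.6 CPM with both ligands. Replicates differed most among the treated groups, so that the second library with both ligands stood level with the first with BMP4 and inhibitor. The log2 difference from inhibitor was 1.65 ± 0.40 (limma adjusted p = 0.0167). Hoxc8 was at 13.3 and 13.99 CPM with BMP4 and inhibitor and 29.2 and 22.4 CPM with both ligands, a difference from inhibitor of 1.24 ± 0.18 (limma adjusted p = 0.00245). Hoxc4 was at 21.5 and 20.0 CPM, 34.5 and 22.3 CPM, 25.7 and 20.0 CPM, and 38.1 and 24.8 CPM. Its difference of 0.55 ± 0.27 did not pass (limma adjusted p = 0.143, 0.0215 under the block), with a 95% interval from -0.11 to 1.21. For Hoxc5 the difference was 0.70 ± 0.28 (limma adjusted p = 0.0806, 0.0232 under the block) and for Hoxc13 it was 1.52 ± 0.58 (limma adjusted p = 0.0699, 0.0164 under the block). With the block 14 members were called as higher and 1 as lower, against 58.9% of all genes, 35.2% as higher and 23.7% as lower. The calls of Hoxa2, Hoxa3, Hoxa4, Hoxb4 and Hoxc8 held with each library left out. Those of Hoxa5 and Hoxa7 did not hold without any 1 library of the compared groups (limma adjusted p from 0.0714 to 0.133). That of Hoxb3 did not hold without inhibitor replicate 2 (limma adjusted p = 0.0902) or replicate 2 with both ligands (limma adjusted p = 0.0707), and that of Hoxb9 did not hold without inhibitor replicate 1 (limma adjusted p = 0.0548). That of Hoxc6 did not hold without either inhibitor library or replicate 1 with both ligands (limma adjusted p = 0.0651, 0.0829 and 0.0782). The number of members called fell without either inhibitor library or replicate 1 of the combined treatment, and so did the number over all genes.

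**Figure D4:**
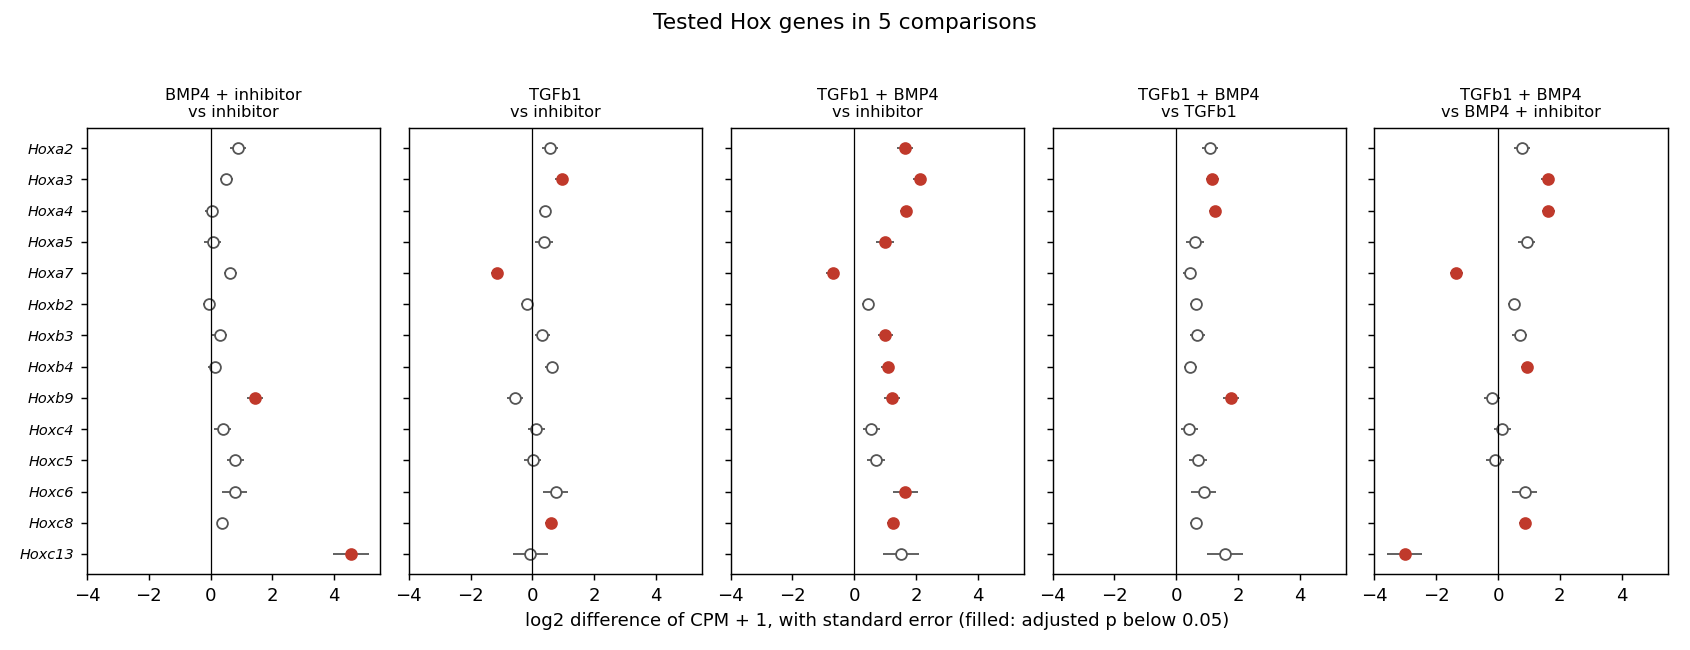
Log2 difference of CPM + 1 for 14 of the 15 tested Hox genes in 5 comparisons, with the standard error as bars and filled points where the limma adjusted p is below 0.05. Hoxa3 lies above 0 and Hoxa7 below it in the comparisons of TGFb1 with inhibitor groups, and Hoxc13 spans from 4.54 with BMP4 to -3.03 when TGFb1 replaces the inhibitor.

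Both ligands against TGFb1 alone asks what BMP4 adds where TGFb1 is present. Hoxa3, Hoxa4 and Hoxb9 rose, 3 of 15 members where 2.01% of all tested genes were called, 0.921% as higher and 1.09% as lower. The log2 differences were 1.17 ± 0.21 for Hoxa3 (limma adjusted p = 0.0494), 1.26 ± 0.20 for Hoxa4 (limma adjusted p = 0.0363) and 1.78 ± 0.26 for Hoxb9. All 15 members had a difference above 0, with a median of 0.68 against 0.13 over all genes. The share of all genes with a difference above 0 was not counted. Hoxb9 and Hoxc13 reached 1 CPM in both libraries of a group only where BMP4 was given. They thus entered the test through groups in which they were high. Nothing is read from the counts of members in this comparison, their signs or their median. With the block Hoxa2 joined (limma adjusted p = 0.0408), and none was lower, against 6.93% of all genes, 3.55% as higher and 3.38% as lower. None of the 3 calls held without an inhibitor, TGFb1 or combined-treatment library, whichever was left out. The limma adjusted p was then 0.109 to 0.217 for Hoxa3, 0.0691 to 0.166 for Hoxa4 and 0.0572 to 0.132 for Hoxb9. Hoxa4 did not pass without BMP4 with inhibitor replicate 1 or 2 either (limma adjusted p = 0.0578 and 0.0567).

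Both ligands against BMP4 with inhibitor asks what TGFb1 in place of its inhibitor changes where BMP4 is present. Hoxa3, Hoxa4, Hoxb4 and Hoxc8 rose, and Hoxa7 and Hoxc13 fell, 6 of 15 members where 28.2% of all tested genes were called, 17.3% as higher and 10.9% as lower. Hoxc13 reached 1 CPM in both libraries of a group only with BMP4 and inhibitor, where it was highest. Nothing is read from the counts of members in this comparison for that reason. Hoxa3 and Hoxa4 differed by 1.61 ± 0.21 (limma adjusted p = 0.00289) and 1.63 ± 0.20 (limma adjusted p = 0.00234). For Hoxb4 and Hoxc8 the differences were 0.94 ± 0.21 (limma adjusted p = 0.0185) and 0.86 ± 0.18 (limma adjusted p = 0.0155). The calls of Hoxa3, Hoxa4, Hoxa7 and Hoxc13 held with each library left out. That of Hoxb4 did not hold without replicate 2 of either group (limma adjusted p = 0.0863 and 0.0859), nor that of Hoxc8 without either BMP4 with inhibitor library or replicate 1 with both ligands (limma adjusted p = 0.054, 0.0541 and 0.0727). With the block 9 were higher and 2 lower, against 41.1% of all genes, 25.7% as higher and 15.4% as lower. The added members were Hoxa2, Hoxa5, Hoxb2, Hoxb3 and Hoxc6, with limma adjusted p between 0.0166 and 0.0498. Hoxc6 libraries of these groups touched each other. Hoxb9 did not pass, with a difference of -0.2 and a 95% interval from -0.81 to 0.41. The comparisons above share libraries, so their calls are not independent of one another.

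The interaction asks whether the effect of BMP4 differs between TGFb1 and inhibitor. No Hox gene passed limma after adjustment, where 1.29% of all tested genes were called, 0.297% as higher and 0.989% as lower. At an unadjusted p under 0.05 limma gave 3 members, and the share of all genes at that p was not counted. The 3 were Hoxa4, at 1.22 ± 0.28 (limma adjusted p = 0.105), Hoxb2, and Hoxc13, at -2.96 ± 0.82 (limma adjusted p = 0.151). With the replicate block Hoxa4 was called as higher (limma adjusted p = 0.0453) and Hoxc13 as lower (limma adjusted p = 0.0345), against 6.90% of all genes, 2.65% as higher and 4.26% as lower. The 2 log2 differences were equal in both fits, and their adjusted p passed the threshold under the block alone.

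The Hox clusters also hold antisense and other transcripts, and several share exons with the members. The strand setting of the authors' counting is not given in the sources used here, so reads of a gene and of an antisense partner cannot be told apart. Hoxb3 shares 52.9% of its exon bases and Hoxb2 27.3% with the antisense gene Hoxb3os. In cluster A the share was 20.4% for Hoxa7 with Hoxaas3 and 16% for Hoxa4 with Gm29430. Hoxa3 shares 27.1% of its exon bases with 5 genes. No exon base of Hoxa5, Hoxb4, Hoxb9, Hoxc4, Hoxc6, Hoxc8 or Hoxc13 is shared with another gene.

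Of the 51 other genes annotated inside the clusters or within 10000 bases of their ends, 13 were tested and 28 were at 0 in every library. With both ligands 8 of the 10 tested in cluster A and all 3 in cluster B rose against inhibitor, and none fell, where 27.6% of all tested genes were called as higher. They are not all separate features: Gm27868 lies within the span of Hotairm1, and Gm28308 shares exons with Hoxa2 and Hoxa3. Only libraries with TGFb1 brought 5730596B20Rik to 1 CPM, and only libraries with BMP4 brought Mir196a-1 to it. Both entered the test through groups in which they were high, so nothing is read from these counts. Hoxaas2, antisense to Hoxa3, was at 2.05 and 1.5 CPM with inhibitor, 4.55 and 3.55 CPM with BMP4 and inhibitor, 2.75 and 3.6 CPM with TGFb1, and 9.24 and 15.7 CPM with both ligands. As in Hoxa3, both combined-treatment libraries lay above the other 6, with a log2 difference from inhibitor of 2.25 ± 0.28 (limma adjusted p = 0.00142). Hotairm1, a regulatory RNA of cluster A, was at 4.4 and 6.00 CPM with inhibitor and 9.99 and 10.4 CPM with both, a difference of 0.86 ± 0.18 (limma adjusted p = 0.00949). Hoxaas3, which overlaps Hoxa7, was called in none of the 6 comparisons. Among 16 listed non-coding transcripts of the clusters 5 were tested. Of these 1 rose with BMP4 and inhibitor, none was called with TGFb1, and 4 rose with both ligands against inhibitor. Mir196a-1 is among the 5, so nothing is read from these counts either. Hottip and Hotair, the non-coding RNAs at the tail ends of clusters A and C, were at 0 in every library.

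The 10 members that reached the floor without being tested did not all vary alike between libraries. Together they summed to 0.7 and 0.95 CPM with inhibitor, 1.4 and 1.7 CPM with BMP4 and inhibitor, 1.25 and 2.4 CPM with TGFb1, and 1.2 and 4.25 CPM with both ligands, replicate 1 first. Replicate 2 had the higher sum in every group, and so it had for the fibroblast, muscle and endothelial marker sums. In 26 of 40 pairs of a gene and a group replicate 2 was higher, and in 8 it was lower. In the 15 tested genes it was higher in 24 of 60 such pairs and lower in 36. Muscle markers summed to 14.6 and 76.0 CPM with inhibitor, 56.9 and 234 CPM with BMP4 and inhibitor, 78.2 and 356 CPM with TGFb1, and 121 and 680 CPM with both ligands. Endothelial markers ranged from 0.2 CPM in replicate 1 with inhibitor to 4.6 CPM in replicate 2 with both ligands. The sums of the immune list and of the nerve and glia list did not have this replicate order in every group. With inhibitor replicate 1 was the higher, at 131 and 110 CPM for immune and 1.7 and 0.9 CPM for nerve and glia markers. With TGFb1 and with both ligands replicate 2 was the higher in both lists. Most of the immune sum with inhibitor was Cd68, at 131 and 106 CPM. Lyz2, of the same list, was higher in replicate 2 of every group. It was at 0.2 and 3.4 CPM with inhibitor and 5.9 and 51.6 CPM with both ligands. Adgre1 had the same order, at no more than 0.799 CPM. Cd68, Ptprc and Cd3e did not have it in every group. Of the fibroblast markers Twist2 alone was at 0, in 1 library, and no muscle marker was at 0. Of the 5 endothelial markers 1 was tested, and up to 2 were at 0 in a library. The part of these cells in the low Hox levels was not tested. Hoxb5 to Hoxb8, Hoxd4, Hoxd8 and Hoxd9 each had their highest level in replicate 2 of the combined treatment, between 0.25 CPM for Hoxb8 and Hoxd4 and 0.899 CPM for Hoxb5 and Hoxd8. Hoxa6 and Hoxa9 instead were highest in replicate 1 with BMP4 and inhibitor, at 0.65 and 0.45 CPM. Hoxa6 ranged from 0.35 to 0.4 CPM with inhibitor, 0.4 to 0.65 CPM with BMP4 and inhibitor, 0.45 to 0.55 CPM with TGFb1, and 0.3 to 0.4 CPM with both ligands. Hoxa9 was at 0.05 CPM in both inhibitor libraries, 0.45 and 0.2 CPM with BMP4 and inhibitor, 0 in both TGFb1 libraries, and 0.05 and 0.1 CPM with both. Hoxc9 ranged from 0.1 to 0.3 CPM.

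**Figure D5:**
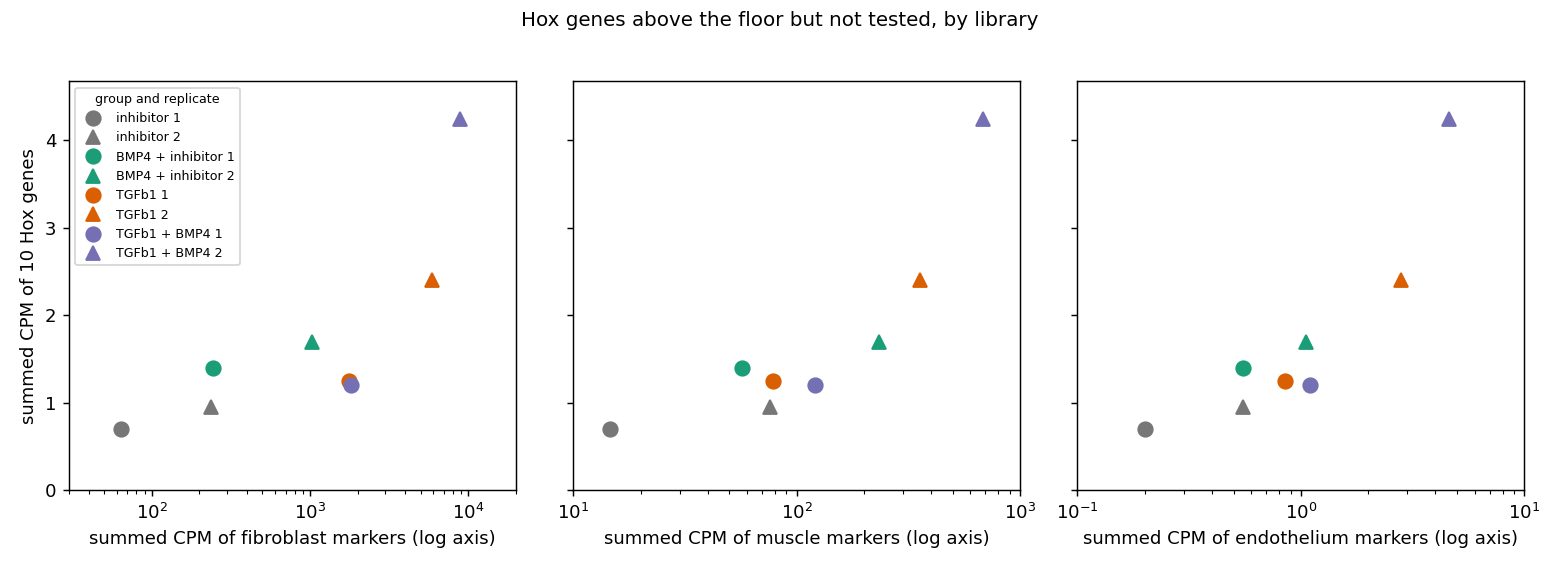
Summed CPM of the 10 Hox genes that reached the floor without being tested (linear axis) against the summed CPM of 16 fibroblast, 9 muscle and 5 endothelial markers (log axes that differ between panels), one point per library, coloured by group with circles for replicate 1 and triangles for replicate 2. The highest point is replicate 2 with both ligands, at 4.25 CPM, and in each group replicate 2 lies up and to the right of replicate 1 in all 3 panels. The panels show marker lists picked because they differed between replicates, and the immune list and the nerve and glia list are not shown.

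Most cofactors of Hox proteins were expressed in all groups. All 12 listed TALE cofactors and their partners were tested. With BMP4 and inhibitor 3 rose and none fell, with TGFb1 6 rose and 2 fell, and with both ligands 7 rose and 1 fell, each against inhibitor. Of all tested genes 8.41%, 40.0% and 46.0% were called in these 3 comparisons. Meis2, a TALE cofactor, was at 16.6 and 16.7 CPM with inhibitor, 50.7 and 33.3 CPM with BMP4 and inhibitor, 27.8 and 28.4 CPM with TGFb1, and 52.0 and 42.1 CPM with both. All 6 treated libraries lay above the inhibitor libraries. Meis2 rose with BMP4 and inhibitor, by 1.25 ± 0.21 (limma adjusted p = 0.0194). Pbxip1, which binds Pbx proteins, rose in all 3 of these comparisons, and Pbx4 fell with TGFb1, by -1.20 ± 0.17 (limma adjusted p = 0.00315). Pbx4 reached 1 CPM only in libraries with inhibitor and was at 0.1 to 0.2 CPM in those with TGFb1. It thus entered the test through groups in which it was high, so nothing is read from its call or from counts with it.

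Of the 23 Polycomb subunits, 1 rose and 7 fell with TGFb1 against inhibitor, 4 rose and 5 fell with both ligands, and 1 rose with BMP4 and inhibitor. These 8, 9 and 1 of 23 called compare with 40.0%, 46.0% and 8.41% of all tested genes, which also are the shares beside the lists that follow. Ezh2, the methyltransferase of the repressive mark, fell by 0.73 ± 0.11 on the log2 scale with TGFb1 (limma adjusted p = 0.00373), and Suz12, its partner, also fell by 0.73. Phf1, an accessory subunit, rose by 1.56 ± 0.16 (limma adjusted p = 0.00116). Of 12 Trithorax subunits and demethylases of the mark, none was called with BMP4 and inhibitor, 3 fell with TGFb1, and 2 rose and 2 fell with both ligands. Kdm6b, a demethylase, fell with TGFb1 by 0.76 ± 0.13 (limma adjusted p = 0.00627). Another list held genes placed upstream of Hox genes, not all of them inducers. Of its 12 tested genes, 3 rose and 2 fell with TGFb1, 4 rose with both ligands, and none was called with BMP4 and inhibitor. Aldh1a3, which makes retinoic acid, was at 102 and 83.5 CPM with inhibitor, 172 and 106 CPM with BMP4 and inhibitor, 1564 and 830 CPM with TGFb1, and 1790 and 1219 CPM with both. The 4 libraries with TGFb1 lay above all others. Rarb, a retinoic acid receptor that is itself induced by retinoic acid, was at 0.899 and 0.7 CPM, 3.00 and 0.65 CPM, 12.5 and 8.2 CPM, and 14.99 and 14.2 CPM. Their log2 differences with TGFb1 were 3.61 ± 0.37 (limma adjusted p = 0.00112) and 2.63 ± 0.41 (limma adjusted p = 0.00436). Rarb reached 1 CPM in both libraries of a group only with TGFb1. It thus entered the test through groups in which it was high, so nothing is read from its call or from counts with it. Cyp26b1 and Rarg, of the same list, were lower with TGFb1. Cyp26b1 was at 2.05 and 3.9 CPM with inhibitor and 0.35 and 0.5 CPM with TGFb1. Rarg was at 300 and 285 CPM with inhibitor and 215 and 197 CPM with TGFb1. Retinoic acid signalling was not tested. Of 20 tested cluster neighbours and other homeobox genes, 4 rose with BMP4 and inhibitor, 3 rose and 7 fell with TGFb1, and 4 rose and 4 fell with both ligands. Skap2, a neighbour of cluster A, rose by 1.51 ± 0.15 with TGFb1 (limma adjusted p = 0.000951), and Msx2, a target of BMP signalling, rose by 2.21 ± 0.38 with BMP4 and inhibitor (limma adjusted p = 0.0218).

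The authors' deposited table, with 1 test per gene over all groups, gave 6 Hox genes an FDR under 0.05, namely Hoxa3, Hoxa4, Hoxa7, Hoxa9, Hoxb9 and Hoxd3. The share of all genes at that FDR was not counted, so nothing is read from this number. Hoxa9 was between 0 and 0.45 CPM over all libraries. In the authors' deposited table Hoxc13 had an FDR of 0.0936 and the largest log2 fold change of the 39, 8.48 with BMP4 and inhibitor. Hoxd3, with an FDR of 0.0148 in the authors' deposited table, was at 0 in the 4 inhibitor libraries and at 0.05 to 0.1 CPM in the 4 TGFb1 libraries, so its values rest on 1 or 2 scaled units per library.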

How the data were processed

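Ovation SoLo libraries of the 8 samples were run on a NovaSeq, per the labels' protocols. The submitters' processing notes name STAR 2.5.3a, HTSeq, edgeR, Cell Ranger 3.1.0, GRCm38 and mm10, without roles. The deposited whole numbers are a score, counts that the authors brought to near 20000000 in each library, rounding up, as read from their sums. The deposited CPM equal these divided by the library total, to within 0.0005. The authors' deposited p-values, FDR and log2 fold changes were used only where named. The sources used here give no read totals, so counting intervals use scaled units and cover counting error only.

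Since the values were scaled, no count test was run, and limma 3.58.1 in R 4.3.3 was used on log2(CPM + 1), genes at 1 CPM in 2 libraries, group as the only term, Benjamini-Hochberg adjustment over 16180 genes. In simulated libraries for TGFb1 against inhibitor, 100 of 100 genes changed 4-fold, 55 of 100 changed 2-fold and 8 of 12947 unchanged genes were called. Replicate differences correlated between all 6 pairs of groups by 0.324 to 0.738, so the numbers shared by the labels were taken to pair libraries, and values of a blocked fit stand beside the calls that it changes. Tested members are named. Of each context list up to 3 called genes per comparison by smallest adjusted p could be named. Cyp26b1 and Rarg were added as listed genes with a lower level. The members and lists were chosen with earlier results of these data known. Some genes and sequences are not reported here. Positions and exons came from GENCODE M21 on GRCm38, to which 99.56% of gene IDs matched, promoters and the microRNA from RefSeq. Alternatives were median-of-ratios scaling, a pseudocount of 0.1, no filter, a filter of 1 CPM in 4 libraries, the block, compared groups alone, and each library left out.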

Additional observations from a re-analysis of the deposited data

How the results depend on the processing

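The 44 pairs of a gene and a comparison examined were those called in the fit without or with the block. Over their alternative settings 498 kept the side of the threshold, 82 lost a call and 30 gained one, and 0 reversed a direction. The block, the filters, the compared groups alone and a left-out library of another group cannot change a log2 difference. The absence of reversals was thus largely fixed in advance, and nothing is read from it. With the replicate block the Hox genes called became 6 for BMP4 with inhibitor against inhibitor (2 without it), 6 for TGFb1 against inhibitor (3), 11 for both ligands against BMP4 with inhibitor (6) and 2 for the interaction (0). The other counts became 15 for both ligands against inhibitor (11) and 4 for both ligands against TGFb1 (3). For BMP4 with inhibitor against inhibitor the count was 1 with no filter, 1 under the stricter filter, where Hoxc13 was not tested, and 1 with the compared groups alone. Over all genes these settings gave 509, 856 and 400 higher and 242, 440 and 181 lower calls, of 32344, 15064 and 16180 genes. For both ligands against TGFb1 the Hox count was 0 with no filter, where 37 of 32344 genes were called as higher and 43 as lower. It was also 0 with the compared groups alone, where 0 of 16180 genes were called as higher and 0 as lower. For both ligands against BMP4 with inhibitor it was 3 with the compared groups alone, where 1315 genes were called as higher and 1063 as lower. The cause of these changes in number was not tested. Leaving out each library in turn gave 0 to 3 genes for BMP4 with inhibitor against inhibitor, 1 to 4 for TGFb1 against inhibitor, 6 to 11 for both ligands against inhibitor, 0 to 2 against TGFb1, 4 to 6 against BMP4 with inhibitor and 0 for the interaction. Where this left a group with 1 library, that library was taken to vary like the other groups. The shares of all genes called are not given beside these ranges, so nothing is read from them about the members. Levels near 0.15 CPM are imprecise, since the authors' values were rounded up.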
